A study of Mus musculus with 16 samples.

Results

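hsa-miR-31-5p, hsa-miR-135b-5p and the 5p arms of the miR-183 cluster (hsa-miR-183-5p, hsa-miR-96-5p and hsa-miR-182-5p) are human microRNAs described as raised in colorectal cancer, and they were followed here in the RNA that an irradiated colorectal cancer line released into its medium. The 5 members were found by exact match of the miRNA name on the array, out of 1205 human miRNAs with probes. HCT116, a human colorectal carcinoma line, received X-rays at a high dose rate, and small RNA was taken from the culture supernatant 72 h later with the ISOGEN kit. The doses were 0, 2, 6 and 10 Gy, with 4 separate cultures and 4 one-colour arrays at each, 16 arrays in all. All cultures, the unirradiated 0 Gy ones included, were kept in RPMI1640 medium with fetal bovine serum, and the line's gene background was not modified. The labels give the organism as mouse, but the line and the array are human, and the miRNA names are the human ones on the array. The text on the series' design lists no 2 Gy cultures, whose group was taken from each sample's label. The study is of a cultured line without other tumour or host cells, and the serum is a second source of RNA whose part in the values was not tested.

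A microRNA is a short RNA that guides silencing complexes to messenger RNAs, mainly through its seed, the bases near its 5′ end. Outside cells it travels in vesicles or bound to proteins. miR-31 is studied in colorectal tumours of the serrated type and in those with BRAF mutations. miR-183, miR-96 and miR-182 are cut from a shared transcript and have closely related seeds, with FOXO transcription factors among their described targets, and miR-135b is known as a repressor of APC, the tumour suppressor of the WNT pathway. Each hairpin yields a 5p and a 3p arm, of which one is usually more abundant.

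Mature sequences were taken from RefSeq for mouse (GRCm38.p6), since only mouse entries were given, and 4 of the 5 members matched a mouse entry of the same name. They are shown because relatedness of the cluster's 5p arms bears on how their probes are read, and the 3p arms because their detection differed from that of the 5p arms. Capitals mark the seed, bases 2 to 8.
mmu-miR-31-5p: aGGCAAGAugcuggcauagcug
mmu-miR-183-5p: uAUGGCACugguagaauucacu
mmu-miR-96-5p: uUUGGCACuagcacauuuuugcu
mmu-miR-182-5p: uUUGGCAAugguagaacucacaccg
mmu-miR-31-3p: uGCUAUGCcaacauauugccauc
mmu-miR-183-3p: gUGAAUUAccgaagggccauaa
mmu-miR-135b-3p: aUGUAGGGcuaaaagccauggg
The seeds of mouse miR-183-5p and miR-96-5p had 6 of 7 bases in common, as did those of miR-96-5p and miR-182-5p, and those of miR-183-5p and miR-182-5p had 5 of 7. Aligned from the 5′ end without gaps, miR-183-5p and miR-182-5p were identical at 18 of 22 bases. miR-31-5p had 0 seed bases in common with miR-183-5p and with miR-96-5p, and 1 with miR-182-5p. The cluster's members lie on mouse chromosome 6 and miR-31 on chromosome 4.

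Of the 5 members, 2 were found in the medium. miR-31-5p was detected on 11 of 16 arrays and miR-183-5p on 14. miR-96-5p, miR-182-5p and miR-135b-5p were detected on 0 arrays, with 0 of 613, 0 of 610 and 0 of 614 spots well above background. A probe was called detected where a share over 0.5 of its spots was marked well above background by the scanner software, and an miRNA where at least 1 of its probes was.

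The arrays themselves set limits on every comparison. Each array had 56044 spots, of which 3.27% to 4.90% were outliers and left out, and 242 to 358 human miRNAs were detected per array. The RNA added before labelling as a control (the labelling spike-in) was in the software's range on 3 of 16 arrays and undetected on 4, whereas the hybridisation control was in range on all 16. An array was called undetected where the signal of any of the labelling spike-in RNAs read was below 0. The 4 arrays so called were 0 Gy replicate 3, 2 Gy replicate 1, and 6 Gy replicates 1 and 4. Of these, 2 Gy replicate 1 and 6 Gy replicate 1 still had a combined log10 signal of 0.306 and 0.503, so the control was not absent there. The 0 and 2 Gy arrays filled slide 1 and the 6 and 10 Gy arrays slide 2, so for 6 or 10 Gy against 0 Gy dose and slide cannot be told apart. Single arrays stood apart from the others of their dose. For miR-31-5p, 0 Gy replicate 3 and 10 Gy replicate 4 were low and 2 Gy replicate 2 was high, and for miR-183-5p, 2 Gy replicate 2 and 6 Gy replicate 2 were high. Results are given with and without these arrays. In a bulk supernatant, fewer releasing cells and less RNA released per cell cannot be told apart.

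miR-31-5p had 2 probes, and the brighter (A_25_P00014822) is described first, in intensity units of the software's processed signal. At 0 Gy it read 89.4, 125, 20.2 and 115 in replicates 1 to 4. At 2 Gy it read 15.3, 139.7, 10.5 and 10.6. At 6 Gy it read 16.8, 42.5, 17.1 and 4.95, and at 10 Gy 55.4, 42.9, 43.6 and 9.80. The 0 Gy values were high except in replicate 3, the 2 Gy values were low except in replicate 2, which was the brightest of all 16 arrays, and every pair of doses overlapped. The dimmer probe (A_25_P00012019) followed it closely, with r = 0.994 over the 16 arrays, and spanned 3.18 to 58.7. Negative control spots averaged 1.89 to 3.71 on the same scale.

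The share of miR-31-5p spots well above background was also highest at 0 Gy and lowest at 6 Gy. It was 127 of 145 spots at 0 Gy and 51 of 157 at 2 Gy. Among the higher doses it was 47 of 156 at 6 Gy and 92 of 150 at 10 Gy. Averaged over arrays, it was 86.8% ± 26.5 at 0 Gy, then 32.5% ± 47.2 at 2 Gy, 29.5% ± 35.5 at 6 Gy and then 62.8% ± 43.6 at 10 Gy (SD, n = 4 each). The SD between arrays of the same dose was of a size with most of the gaps between doses. In exact two-sided permutation tests of 4 arrays against 4, which cannot give a p below 0.0286, p was 0.143 for 2 Gy, 0.0571 for 6 Gy and 0.543 for 10 Gy against 0 Gy, and 0.343 for 10 Gy against 6 Gy. Adjusted over these 4 comparisons, the smallest was 0.229.

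miR-183-5p had 4 probes that did not agree in brightness. The 2 brightest (A_25_P00012098 and A_25_P00012099) gave nearly the same values, A_25_P00012097 was detected on 4 arrays, and A_25_P00012096 never exceeded -0.388. Across pairs of these probes r ran between 0.752 and 0.999 over the 16 arrays. A_25_P00012099 read 45.4, 138, 28.7 and 80.7 at 0 Gy in replicates 1 to 4. At 2 Gy it read 22.3, 116, 18.6 and 26.0. At 6 Gy it read 19.1, 91.9, 16.3 and 3.37, and at 10 Gy 47.2, 66.1, 47.2 and 18.8. Replicate 2 was the brightest array at every dose, and at 2 and 6 Gy the other 3 arrays were all dimmer than every 0 Gy array.

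The share of miR-183-5p spots well above background was 101 of 159 at 0 Gy and 73 of 152 at 2 Gy. It was 44 of 157 at 6 Gy, the lowest, and 73 of 151 at 10 Gy. Per array it averaged 63.6% ± 12.97 at 0 Gy, then 46.9% ± 23.4 at 2 Gy, 27.8% ± 32.8 at 6 Gy and then 48.3% ± 15.3 at 10 Gy (SD, n = 4 each). The exact permutation p was 0.2 for 2 Gy, 0.143 for 6 Gy and 0.229 for 10 Gy against 0 Gy, and 0.314 for 10 Gy against 6 Gy, with 0.305 the smallest after adjustment over the 4.

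**Figure D1:**
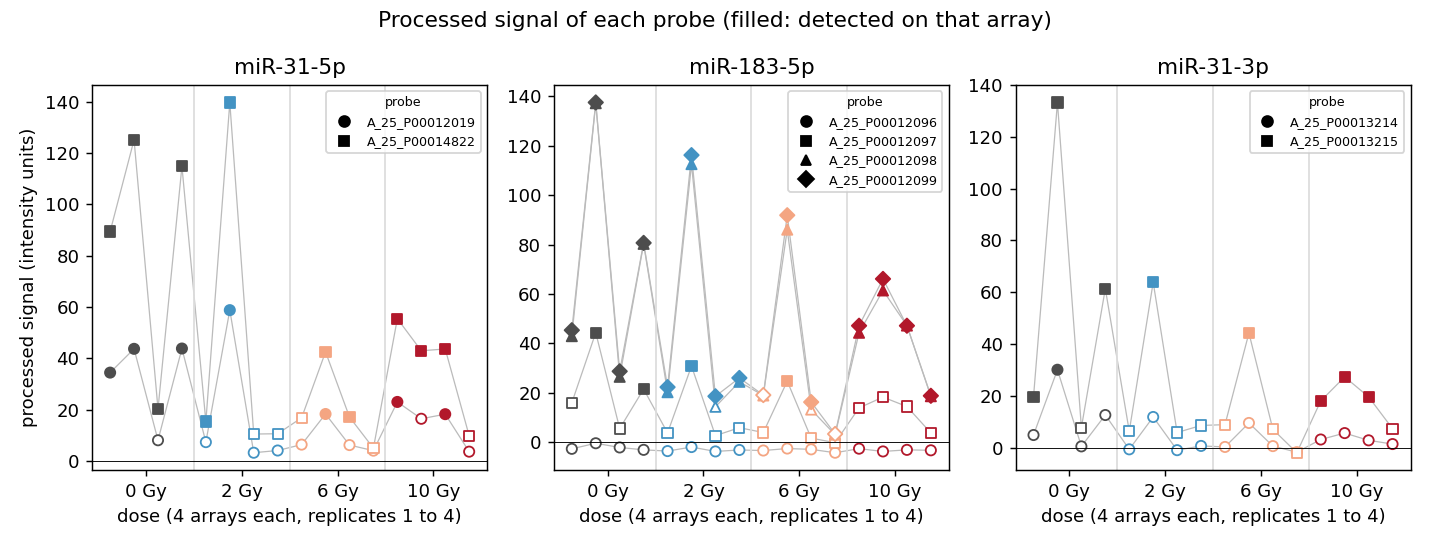
Processed signal (intensity units) of every probe of miR-31-5p, miR-183-5p and miR-31-3p on each of the 16 arrays, grouped by dose, with filled symbols where the probe was detected. For miR-31-5p the brighter probe is high on 3 of the 4 arrays at 0 Gy and on 1 of the 4 at 2 Gy, where it reached 139.7.

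The 3 undetected members stayed near or below the level of the negative controls. For miR-96-5p the probe A_25_P00012035 had a mean signal of 3.03 ± 1.35 at 0 Gy, then 1.63 ± 0.66 at 2 Gy, 1.95 ± 0.68 at 6 Gy and then 2.52 ± 0.21 at 10 Gy (SD, n = 4 each). The brightest probe of miR-182-5p, A_25_P00012095, ranged between -2.86 and 5.12 over all arrays. Its dimmest, A_25_P00012092, ranged between -5.51 and -2.24, below the negative controls. For miR-135b-5p the probe A_25_P00012383 ranged between 2.46 and 5.03. With no spot well above background at any dose, no fold change was formed for these miRNAs, and a signal at background gives an upper bound only, not a level of zero.

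The other arms of the same hairpins did not follow their 5p partners in a uniform way. miR-31-3p was detected on 8 of 16 arrays, with 3 each at 0 and 10 Gy and 1 each at 2 and 6 Gy. Its brighter probe (A_25_P00013215) read 19.7, 133, 7.77 and 61.4 at 0 Gy and 6.40, 63.9, 5.90 and 8.62 at 2 Gy. It read 8.93, 44.3, 7.13 and -1.90 at 6 Gy and 18.1, 27.4, 19.6 and 7.38 at 10 Gy. It was brightest on arrays where miR-31-5p was bright too, with r = 0.827 between the brighter probes over the 16 arrays, which share labelling and scanning. miR-31-3p is usually the less abundant arm of its hairpin.

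miR-135b-3p was detected on 10 arrays although miR-135b-5p, usually the more abundant arm, was detected on none. It was detected on 1 array at 6 Gy and on 3 at each of the other doses. Its first probe (A_25_P00013548) averaged 25.3 ± 7.6 at 0 Gy, then 21.1 ± 8.7 at 2 Gy, 12.6 ± 4.9 at 6 Gy and then 20.8 ± 6.4 at 10 Gy (SD, n = 4 each). All 4 of its probes gave the same pattern, with r between 0.972 and 0.982 for every pair. Its first probe was lowest on 6 Gy replicates 3 and 4 and 10 Gy replicate 4, and its r with the brighter miR-31-5p probe was 0.888.

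miR-183-3p was detected on all 16 arrays, but through 1 of its 4 probes. That probe (A_25_P00013320) read between 27.9 and 126.8, while the remaining 3 were detected on 0 arrays and reached at most 15.5. Its r with miR-183-5p over the 16 arrays was -0.11 between the processed signals of the brightest probes and -0.59 between the scaled levels, beside a median of -0.24 over all tested miRNAs. Because its probes disagree, its values are those of a probe and not a settled level of the arm. miR-96-3p and miR-182-3p were detected on 0 arrays. Of the paralog miR-135a, the 5p arm, which has the same seed as miR-135b-5p in the miRNA family, was detected on 0 arrays, and the 3p arm on all 16 with signals between 262 and 2216.

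**Figure D2:**
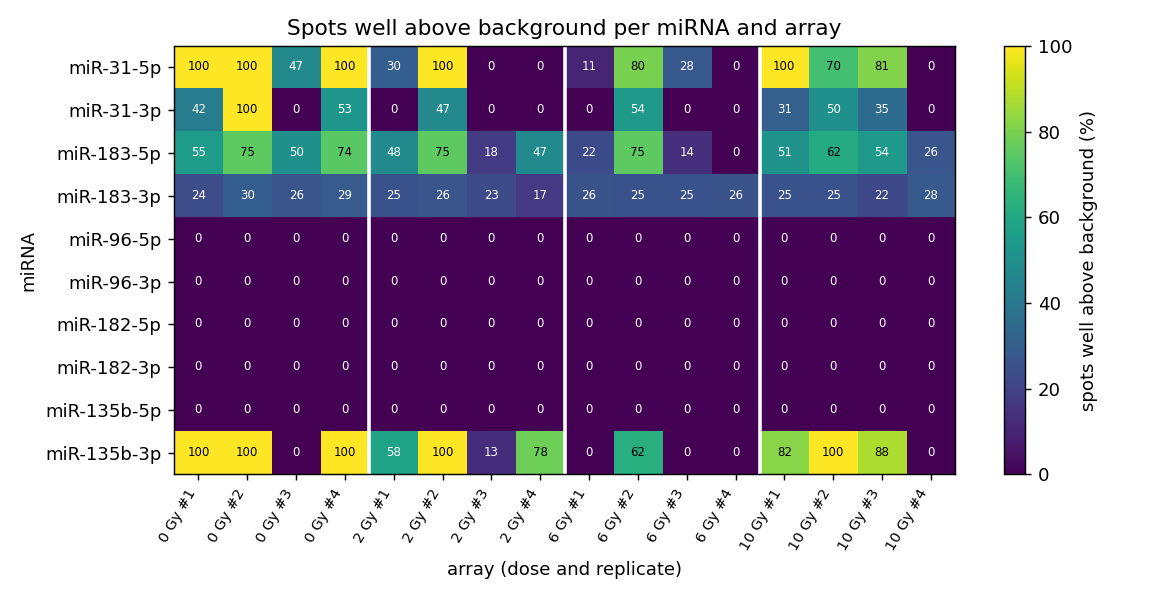
Percent of spots well above background (colour and number) for each member and its other arm on each of the 16 arrays, ordered by dose and replicate. miR-96, miR-182 and miR-135b-5p are at 0 on every array, and 0 Gy replicate 3 differs from the other 0 Gy arrays in miR-31-5p, miR-31-3p and miR-135b-3p.

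For the comparison of doses, signals were divided by each array's 75th percentile over the 518 probes detected on all arrays, set to a floor of 0.0412 and taken as log2, and 283 human miRNAs with a probe detected on all 4 arrays of a dose were tested. miR-31-5p entered through the 0 Gy arrays alone, with 1 of its 2 probes, so its being higher there was built into its selection. miR-183-5p entered with 2 of its 4 probes, of which A_25_P00012098 also passed through the 0 Gy arrays alone, while A_25_P00012099 was detected on all 4 arrays at 0, 2 and 10 Gy. The tests of both members against 0 Gy that follow carry this selection and are no independent evidence of their direction. The log2 scaled level of miR-31-5p at 0 Gy was -1.96, -2.23, -4.60 and -1.82, and at 2 Gy -4.60, -2.28, -4.60 and -4.60. At 6 Gy it was -4.60, -3.81, -4.35 and -4.60, and at 10 Gy -3.09, -3.28, -3.23 and -4.60. The floor, -4.60, was the value on 7 of the 16 arrays, 3 of them at 2 Gy, 2 at 6 Gy and 1 each at 0 and 10 Gy, and arrays at that value cannot be ranked against each other. miR-183-5p was at the floor on 2 arrays, both at 6 Gy.

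**Figure D3:**
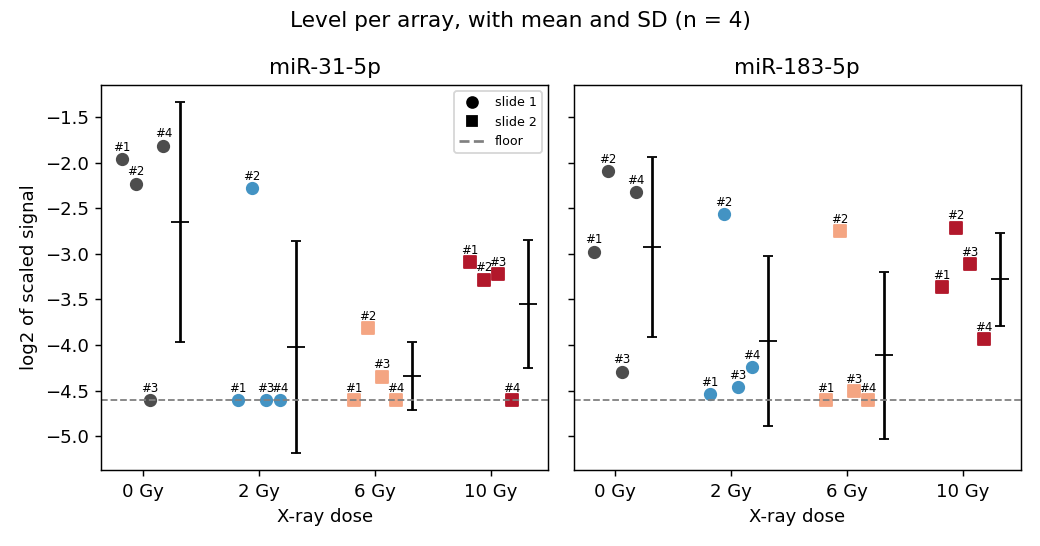
Log2 scaled level of miR-31-5p and miR-183-5p on each array by dose, with replicate numbers, the mean and SD (n = 4) to the right of each group and the floor as a dashed line. Circles are slide 1 and squares slide 2. In both miRNAs 0 Gy replicate 3 lies low and 2 Gy replicate 2 high for its dose.

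The members' tests are set here against the whole array, on which 0 of the 2 tested members passed in any comparison. Over all 283 miRNAs, limma adjusted p was under 0.05 for 12.7% at 2 Gy and 19.4% at 6 Gy against 0 Gy, 0.353% at 10 Gy against 0 Gy, and 0 for 10 Gy against 6 Gy, where 42 had an unadjusted p under 0.05. The share called higher was 6.01% at both 2 Gy and 6 Gy, and the share called lower 6.71% and 13.4%. Groups that did not overlap were found for 11.3%, 9.19%, 15.2% and 10.6% of the miRNAs in those comparisons, and for neither member in any of them.

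miR-31-5p averaged -4.02 ± 1.16 at 2 Gy and -2.65 ± 1.31 at 0 Gy (SD, n = 4 each), a difference of -1.37 on the log2 scale (SE 0.63, 95% interval -2.72 to -0.02). At 6 Gy it averaged -4.34 ± 0.37, a difference of -1.69 from 0 Gy (SE 0.63, interval -3.04 to -0.34). At 10 Gy it averaged -3.55 ± 0.70, a difference of -0.90 from 0 Gy (interval -2.25 to 0.45) and of 0.79 from 6 Gy (interval -0.56 to 2.14). With 3 of 4 arrays at the floor at 2 Gy and 2 of 4 at 6 Gy, the size of these differences and their intervals depend on the floor, and a lower one, at the 1st percentile, gave -1.46 and -1.74 at 2 and 6 Gy. The doses did not form a steady series, since 10 Gy lay between 0 and 6 Gy. By limma over all 283 miRNAs, adjusted p was 0.141 for 2 Gy, 0.0603 for 6 Gy and 0.420 for 10 Gy against 0 Gy, and 0.418 for 10 against 6 Gy. None passed 0.05 after adjustment, and the arrays of every pair of doses overlapped. The unadjusted limma p was 0.0473 at 2 Gy and 0.0178 at 6 Gy, where 99 and 118 of all 283 miRNAs had one under 0.05. The moderated F test of any difference among the 4 doses gave an adjusted p of 0.18, and 0 of the 283 miRNAs passed it. With every miRNA detected on at least 1 array tested, a filter that does not ask for detection at a given dose, the differences from 0 Gy were -0.99, -1.28 and -0.84 at 2, 6 and 10 Gy (adjusted p by limma 0.161, 0.066 and 0.289). That filter also averaged in the dimmer probe, A_25_P00012019, detected on 7 arrays. These values are therefore not those of the brighter probe with the selection removed, and their sizes cannot be set directly against the ones above.

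miR-183-5p differed in the same directions. It averaged -2.92 ± 0.99 at 0 Gy, then -3.95 ± 0.93 at 2 Gy, -4.12 ± 0.91 at 6 Gy and then -3.28 ± 0.51 at 10 Gy (SD, n = 4 each). The differences from 0 Gy were -1.03 at 2 Gy (SE 0.56, interval -2.23 to 0.17), -1.19 at 6 Gy (interval -2.40 to 0.01) and -0.36 at 10 Gy (interval -1.56 to 0.85). Between 10 Gy and 6 Gy the difference was 0.83 (interval -0.37 to 2.04). The adjusted p by limma was 0.194, 0.122 and 0.716 for 2, 6 and 10 Gy against 0 Gy and 0.384 for 10 against 6 Gy, so none passed. The test over all 4 doses gave 0.258. With the filter of detection on at least 1 array the differences from 0 Gy were -0.79, -0.91 and -0.35 (adjusted p by limma 0.206, 0.125 and 0.674). That filter averaged in the dim probe A_25_P00012097 too, detected on 4 arrays, so the sizes are not directly comparable. For 6 and 10 Gy alone, same-numbered arrays varied together for all 4 numbers. A replicate block within their slide was chosen after seeing this in the same data, and the labels give no such pairing. With it the adjusted p by limma of 10 against 6 Gy was 0.068 for miR-183-5p and 0.0789 for miR-31-5p. The count over all miRNAs was 55 of 283 with the block, against 0 without it.

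The call for both members turned on single arrays. The passing values that follow carry the selection through the 0 Gy arrays, and leaving out the low array at 0 Gy adds to it. Without 0 Gy replicate 3, the difference of miR-31-5p was -2.02 at 2 Gy (adjusted p by limma 0.00847) and -2.34 at 6 Gy (adjusted p 0.0037), and that of miR-183-5p was -1.49 (0.0369) and -1.65 (0.02). Without 2 Gy replicate 2, miR-31-5p differed by -1.95 at 2 Gy (adjusted p 0.0305) and by -1.69 at 6 Gy (0.0347), and miR-183-5p by -1.49 at 2 Gy (0.0472). Without 6 Gy replicate 2, miR-183-5p differed by -1.65 at 6 Gy (0.0429). The direction was the same in each of these fits, and 10 Gy against 0 Gy did not pass in any fit that left out 1 array. Without 10 Gy replicate 4 that difference was -0.55 for miR-31-5p and -0.14 for miR-183-5p. Within slide 1 alone, the 2 Gy difference of miR-31-5p was -1.37 (adjusted p 0.251) and that of miR-183-5p -1.03 (0.259). Within slide 2 alone, 10 Gy against 6 Gy gave 0.79 for miR-31-5p (0.194) and 0.83 for miR-183-5p (0.255).

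**Figure D4:**
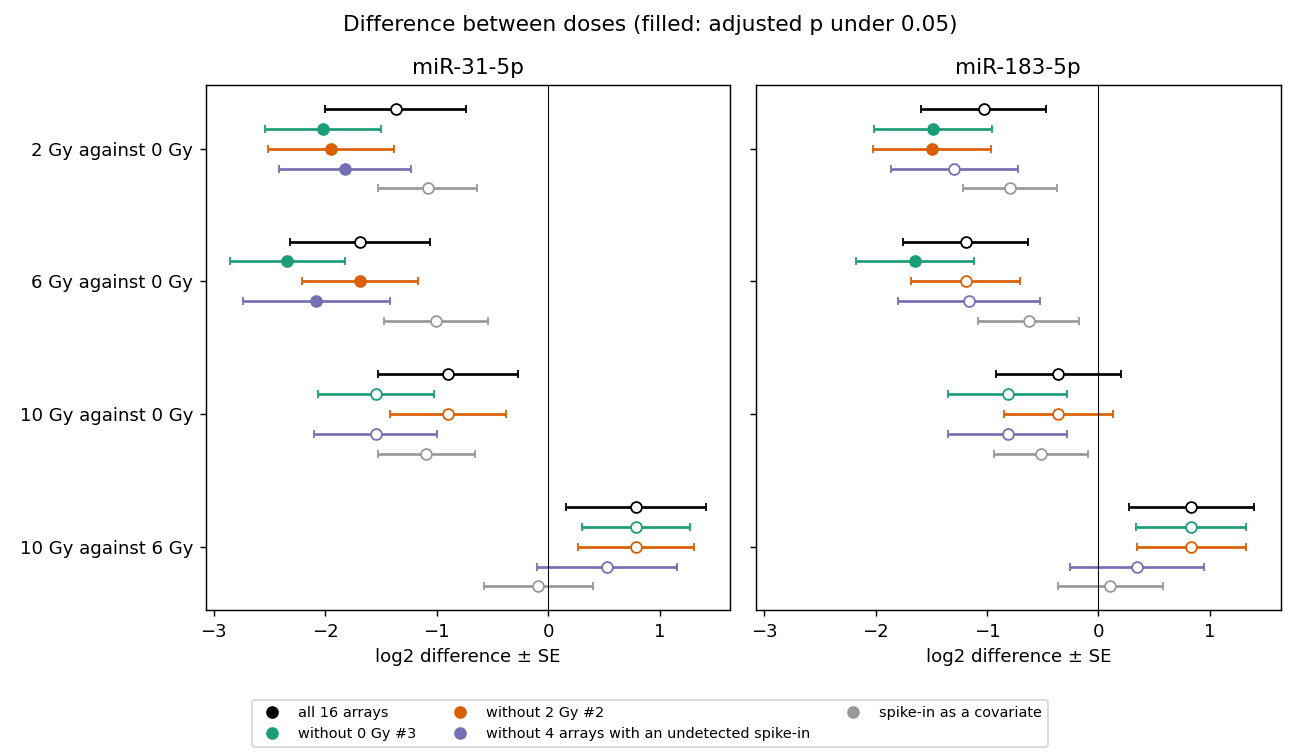
Log2 differences (± SE) of miR-31-5p and miR-183-5p in the 4 comparisons, with all 16 arrays and with arrays left out or the spike-in fitted. Filled symbols have a limma adjusted p under 0.05. The points for 2 and 6 Gy against 0 Gy move to the left and become filled when 0 Gy replicate 3 is left out, and the difference of 10 Gy against 6 Gy lies near 0 once the spike-in is fitted.

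Both members ran with the labelling spike-in. Its log10 signal averaged 1.91 ± 1.75 at 0 Gy, then 1.45 ± 0.81 at 2 Gy, 0.81 ± 1.16 at 6 Gy and then 2.22 ± 0.38 at 10 Gy (SD, n = 4 each). Its mean was lowest at 6 Gy, as the members were, and highest at 10 Gy, where the members were not. The means include undetected spike-ins on 1 array at 0 Gy, 1 at 2 Gy and 2 at 6 Gy. At 0 Gy, undetected replicate 3 stood at -0.70, while replicates 1, 2 and 4 read 3.04, 2.50 and 2.80. The 10 Gy arrays read 1.82 to 2.71, so the order of 0 and 10 Gy rests on that 1 array. Over the 16 arrays the level of miR-31-5p had Pearson r = 0.725 with the spike-in and Spearman rho = 0.857. The permutation p was 2e-05 for both, the smallest that 100000 resamples can give, and 6e-05 after adjustment over 3 relations. For miR-183-5p r was 0.724 and rho 0.793 (permutation p 0.00042 for both, adjusted 0.00042). The 2 members ran together with r = 0.894 and rho = 0.833 (permutation p 0.00012 and 0.00016, adjusted 0.00018 and 0.00024). These permutations moved arrays freely between doses. The r of the other tested miRNAs with the spike-in was not examined, so the relation is not shown to be particular to the members.

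Within slide 1, r with the spike-in was 0.785 for miR-31-5p (exact permutation p 0.00357, n = 8) and 0.721 for miR-183-5p (exact permutation p 0.0352). Within slide 2 it was 0.704 (exact permutation p 0.0146, n = 8) and 0.727 (exact permutation p 0.0225). The rank correlations within slides missed 0.05 for miR-31-5p on slide 2 (exact permutation p 0.0509) and for miR-183-5p on slide 1 (exact permutation p 0.0576). Leaving out 0 Gy replicate 3 and 6 Gy replicate 4, whose spike-in lay farthest from the median, gave r = 0.770 for miR-31-5p and 0.741 for miR-183-5p. Over the 12 arrays with a detected spike-in, r was 0.812 and 0.640.

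With the spike-in fitted as a covariate, the 2 Gy difference of miR-31-5p was -1.08 (adjusted p 0.084), the 6 Gy difference -1.004 (0.149) and the 10 Gy difference -1.09 (0.091). Its difference of 10 Gy against 6 Gy became -0.088 (adjusted p 0.956). For miR-183-5p the differences from 0 Gy became -0.79, -0.63 and -0.52, and that of 10 Gy against 6 Gy 0.11, with adjusted p of 0.177, 0.34, 0.363 and 0.95. The differences from 0 Gy kept their sign, while those of 10 Gy against 6 Gy lay near 0 with either sign. The spike-in was undetected on 4 arrays, and its value there entered this fit as it stood. It was -0.70 on both 0 Gy replicate 3 and 6 Gy replicate 4. The part of labelling in these differences was not tested.

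**Figure D5:**
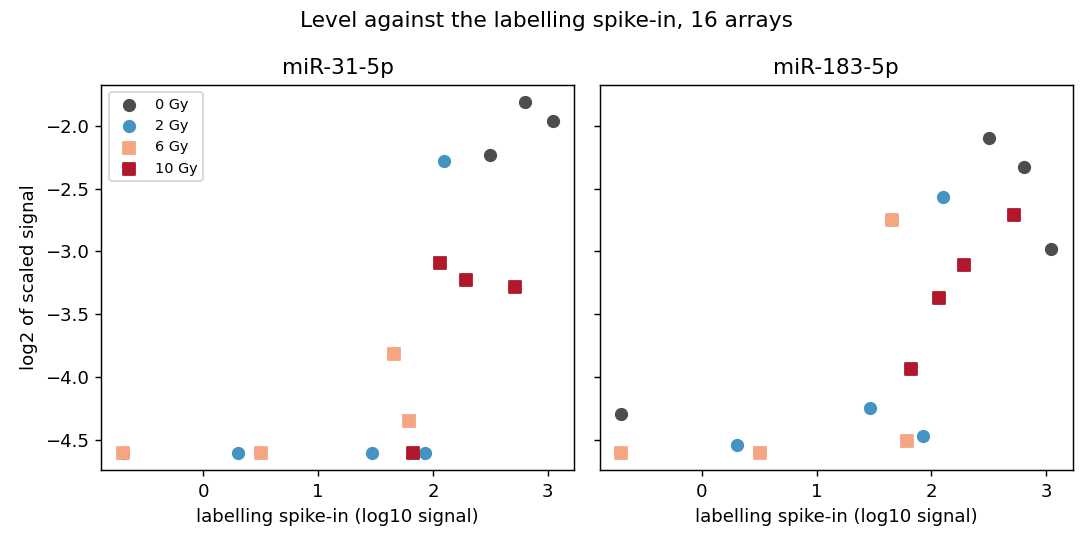
Log2 scaled level of miR-31-5p and miR-183-5p against the log10 signal of the labelling spike-in, 16 arrays coloured by dose, circles for slide 1 and squares for slide 2. In the miR-31-5p panel 0 Gy replicate 3 and 6 Gy replicate 4 coincide at a spike-in of -0.70. Arrays with a brighter spike-in have higher levels, with r = 0.725 for miR-31-5p and 0.724 for miR-183-5p.

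The miRNAs most like miR-31-5p over the 16 arrays, by Pearson r of log2 scaled signal, were miR-24-3p (0.966), miR-27a-3p (0.944), miR-93-5p (0.943), miR-210-3p (0.938) and miR-1273d (0.938). Those most like miR-183-5p were miR-132-3p (0.982), miR-34a-5p (0.982), miR-342-3p (0.954), let-7c-5p (0.954) and miR-200c-3p (0.945). The median r over all tested miRNAs was -0.34 with miR-31-5p and -0.24 with miR-183-5p, and all these values come from the same arrays and labelling reactions. Of the 10, miR-27a-3p, miR-210-3p and let-7c-5p fell at 6 Gy against 0 Gy, with log2 differences of -2.12, -2.29 and -2.24 (adjusted p by limma 0.0407, 0.0374 and 0.0407). Over all 283 miRNAs 13.4% were called lower in that comparison, and these 10 were picked for following the members. miR-210-3p is known as a target of hypoxia signalling, and let-7 members repress RAS genes.

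Among other miRNAs described as raised in colorectal cancer, all that passed by limma were lower after 2 or 6 Gy. Of 16 on the array, 14 were detected on at least 1 array and 9 were tested. At 2 Gy against 0 Gy 3 fell, beside 6.71% of all 283 called lower, and at 6 Gy 4 fell, beside 13.4%. At 10 Gy 0 passed by limma and 1 had an unadjusted p under 0.05, as had 63 of all 283. No miRNA on the array passed at 2 Gy when replicate 1 or replicate 4 of that dose was left out. None passed at 6 Gy when replicate 1, 2 or 4 of the 0 Gy arrays, or replicate 1 or 4 of the 6 Gy arrays, was left out, so these calls, and those of miR-27a-3p, miR-210-3p and let-7c-5p, were lost in those fits. miR-25-3p, of the miR-106b/25 cluster, fell by 3.25 at 2 Gy and 3.04 at 6 Gy, miR-21-5p, a repressor of PDCD4, by 2.79 and 2.72, and miR-221-3p, a repressor of CDKN1B, by 2.03 and 1.79. miR-29a-3p fell by 3.20 at 6 Gy. miR-25-3p, miR-21-5p and miR-221-3p were detected on all 4 arrays at 0 and 10 Gy only, and miR-29a-3p at every dose but 6 Gy. They were thus tested through doses at which they were higher, so their falls were partly built into their selection, as for the members. The counts of this list and its medians carry that selection and are no independent evidence of direction. The list's median difference was -1.90 at 2 Gy, -1.65 at 6 Gy and -0.58 at 10 Gy against 0 Gy, beside medians over all tested miRNAs of 0.03, 0.12 and -0.02.

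Of 16 miRNAs described as lowered in colorectal cancer, 5 were tested and 0 passed by limma in any comparison. Of the 5, 1 had an unadjusted p under 0.05 at 2 Gy, 1 at 6 Gy and 0 at 10 Gy against 0 Gy. Over all 283 tested miRNAs, 99, 118 and 63 had an unadjusted limma p under 0.05 in those comparisons. The median difference of the 5 was -0.26 at 2 Gy, -0.18 at 6 Gy and -0.24 at 10 Gy against 0 Gy. miR-34a-5p, a target of p53, differed by -1.96 at 6 Gy (adjusted p 0.0867) and miR-145-5p by -0.64 (0.176), while miR-133a-3p and miR-133b differed by 0.31 each.

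Markers of other sources were checked on the same arrays. Of 8 colon epithelium markers on the array, 5 were detected on at least 1, with miR-200c-3p and miR-141-3p on 15 each and miR-192-5p, miR-194-5p and miR-215-5p on 0. Their summed scaled level ranged between 0.552 and 2.58 at 0 Gy, then 0.575 and 2.00 at 2 Gy, 0.33 and 0.925 at 6 Gy and then 0.701 and 1.31 at 10 Gy. The 0.33 is the sum with all 8 markers at the floor, and not a measured level. Of 4 red blood cell markers, miR-486-5p was detected on all 16 arrays and miR-451a and miR-144-3p on 0. miR-16-5p, which many cell types hold, was detected on 3 arrays at 0 Gy and 1 at 10 Gy. The sum of the list lay between 0.193 and 0.226 over all arrays, much of it the floor of its undetected members. Of 4 white blood cell and platelet markers, miR-155-5p was detected on all 16 and the remaining 3 on 0. miR-155-5p was higher at 6 Gy than at 0 Gy by 0.31 on the log2 scale (adjusted p by limma 0.0407), the comparison in which the members were lowest. The median over all tested miRNAs there was 0.12, and dose and slide cannot be told apart. This call too was lost in the fits, named above, in which no miRNA passed at 6 Gy. The liver marker miR-122-5p was detected on 4 arrays. Of 4 muscle markers, miR-206 and miR-133a-3p were detected on all 16 arrays, miR-133b on 13 and miR-1 on 0. The part of these sources in the members' levels was not tested.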

How the data were processed

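Each deposited file is the output of Agilent Feature Extraction 11.5.1.1 for a one-colour array, per the file headers. The intensity values used were the deposited processed signal, already background-corrected by the software, with its flags for well above background and for outlier spots. No array has a mean signal column, so the normexp alternative used the deposited median signal and median background intensities. The members and lists were chosen with earlier results of these data known. Named miRNAs were the 5 members, their other arms and paralogs, the 5 tested miRNAs most alike to each of miR-31-5p and miR-183-5p, and at most 4 tested miRNAs of each colorectal cancer list by size of difference at 6 Gy.

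Outlier spots were left out and the rest averaged per probe. Signals were divided by each array's 75th percentile over probes detected on all 16 arrays, floored at the 5th percentile of detected probes (its median across the arrays), and taken as log2. Probes detected on all 4 arrays of a dose were averaged per miRNA: 592 of 3101 probes and 283 of 1205 human miRNAs. limma 3.58.1 in R 4.3.3 was fitted to all 16 arrays with a mean per dose and Benjamini-Hochberg adjustment over 283. The fit was tested on simulated data. Single values were compared by exact permutation in scipy 1.17.1. Arrays give no read depth, and 4 arrays per dose limit the precision. No spot was saturated.

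The labels do not say that replicate numbers mark a shared day or batch. The correlations of same-numbered arrays of different doses ranged between -0.763 and 0.870, with 14 of 24 over 0.1. All 4 were over 0.1 for 6 and 10 Gy (0.226 to 0.715) and not all for any other pair of doses. For 2 with 6 Gy and 2 with 10 Gy, replicate 3 alone fell short (-0.431 and -0.636). The number was taken to pair arrays for 10 against 6 Gy alone, from the data, with the blocked value beside the unblocked one. Replicates 1 and 2 lay in row 1 of their slide and replicates 3 and 4 in row 2, so number and row cannot be fully told apart. Alternatives were another scaling, floor, filter, background correction, probe rule, a replicate block, the spike-in as a covariate, and arrays left out.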

Additional observations from a re-analysis of the deposited data

Results flagged for a closer look

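Of 24 groups of 4 arrays examined (miR-31-5p, miR-183-5p, miR-183-3p and miR-135a-3p levels, and the signal of a probe of miR-31-3p and of miR-135b-3p, at each dose), 7 had an array far from the other 3. Chance flags about 1 in 20 groups where values are normally distributed, which levels at the floor are not, and the groups share arrays. For miR-31-5p at 2 Gy, 3 arrays were tied at the floor, so the flag of the remaining one was fixed by it. The 7 flags therefore cannot be set against that rate. For miR-31-5p, 0 Gy replicate 3 was low at -4.60 on the log2 scale against a group median of -2.10, 2 Gy replicate 2 was high at -2.28 against -4.60, and 10 Gy replicate 4 was low at -4.60 against -3.26. For miR-183-5p, 2 Gy replicate 2 was high at -2.57 against -4.35, and 6 Gy replicate 2 was high at -2.75 against -4.56. For miR-31-3p, 2 Gy replicate 2 was high at a processed signal of 63.9 against 7.51. For miR-135b-3p, 0 Gy replicate 3 was low at 14.0 against 28.6. The labelling spike-in of 0 Gy replicate 3 was undetected, and that of 2 Gy replicate 2 was the brightest of its dose at 2.10 on the log10 scale; the part of labelling in these values was not tested.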

How the results depend on the processing

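The 8 differences of miR-31-5p and miR-183-5p were recomputed 238 times. Of these, 219 kept their direction and their side of the threshold, 18 passed it with the same direction and 1 reversed. All of them reuse the same arrays. Leaving out an array of neither compared dose could not change a difference, only its p, so the count is no measure of independent support. The reversal was miR-31-5p at 10 against 6 Gy with the spike-in as a covariate (-0.088). miR-31-5p at 6 against 0 Gy passed with normexp (-0.73), with scaling over all probes (-1.40) and without the 4 arrays of undetected spike-in (-2.08, and -1.83 at 2 against 0 Gy), alternatives of which the last was chosen after seeing the data, as was leaving out 0 Gy replicate 3 and 2 Gy replicate 2 together. Without that pair the differences were -2.60, -2.34 and -1.55 for miR-31-5p at 2, 6 and 10 against 0 Gy (F 25.4), and -1.95 and -1.65 for miR-183-5p at 2 and 6 Gy (F 7.84). Leaving out 1 array at a time, miR-31-5p ranged between -2.02 and -1.09 at 2 Gy and between -2.34 and -1.41 at 6 Gy (F between 1.64 and 7.59), and miR-183-5p between -1.49 and -0.75 and between -1.65 and -0.92; the F test passed for miR-31-5p without 0 Gy replicate 3 (adjusted p by limma 0.0152). At 10 against 0 Gy they ranged between -1.55 and -0.55 and between -0.81 and -0.083. The replicate block gave -1.19 for miR-183-5p at 6 against 0 Gy (adjusted p by limma 0.0365), and 5 of 16 arrays correlated best with their own number; within the slide of 6 and 10 Gy, a fit chosen after seeing the data, it gave 55 of 283 miRNAs called, against 0 without the block, with neither member among those called. miR-31-5p was detected on 12 arrays with any spot and on 13 by the software's call, miR-183-5p on 15 by either. Over all miRNAs the calls were 36 at 2 Gy and 55 at 6 Gy against 0 Gy (19 lower and 17 higher, 38 lower and 17 higher), and ranged over alternatives between 0 and 152, and 0 and 177. Scaling over all probes gave 18 lower and 111 higher, and 29 lower and 148 higher, and moved the median miRNA to 0.40 and 0.47; quantile normalization gave 16 and 55, and 35 and 92, and without scaling none passed. At 10 against 0 Gy the count was 1 and ranged between 0 and 70. Fitting without a detection filter was not run because 834 of 1205 miRNAs had no spread, and neither was a random slide block, since each dose lay on 1 slide. Signal over background limits all statements on miR-96-5p, miR-182-5p and miR-135b-5p.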

Other observations

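miR-31-3p and miR-135b-3p were left out of the main comparison because no dose had all 4 arrays detected. With every miRNA detected on at least 1 array tested, miR-135b-3p differed by -0.44 at 2 Gy, -0.51 at 6 Gy and -0.26 at 10 Gy against 0 Gy on the log2 scale (adjusted p by limma 0.123, 0.067 and 0.432). miR-31-3p differed by -0.49, -0.53 and -0.53 in the same comparisons (adjusted p 0.204, 0.142 and 0.217). With the software's total signal per miRNA, miR-135b-3p differed by -0.08, -1.23 and 0.07 (adjusted p 0.894, 0.0644 and 0.963). The level of miR-183-3p ran against that of miR-31-5p, with r = -0.50 over the 16 arrays, and that of miR-135a-3p did so with r = -0.64, beside a median of -0.34 over all tested miRNAs; both were read on the same arrays and scaled by the same percentile.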
